A study of Mus musculus with 6 samples.

Results

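The RGS family, the regulators of G protein signalling, was described by 9 genes in cultured mouse dendritic cells: Rgs1, Rgs2, Rgs3, Rgs10, Rgs12, Rgs14, Rgs16, Rgs18 and Rgs19. These 9 of the 54532 features in the count table were found by gene symbol, and all 9 were among the 14174 genes left for testing by a filter on low counts. The set was selected on the large fall of Rgs1 with DB2313, and the other 8 genes were added as members of its family. The difference between the groups is therefore given for these genes as a description. No p-value is printed for them, and nothing is supported by their calls.

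There were 6 libraries in 2 groups of 3. The treatment of the dendritic cells in the control group was labelled only Control, with no vehicle named in that label. Those of the other group were treated with DB2313, a small molecule used against PU.1, a myeloid transcription factor whose gene is Spi1. All cells were kept in RPMI medium with serum and antibiotics. The study's own text speaks of macrophages where the labels say dendritic cells. The labels gave neither strain and age nor the dose and time of treatment. The labels did not say whether the 3 libraries of a group came from separate cultures or animals, so p-values and errors measure the spread between these libraries only, which may be technical. In the table the treated libraries were headed SPI1 and the control libraries BMDC, so each direction holds only if SPI1 stands for treatment with DB2313. Spi1 RNA does not check the labels, since the compound acts on the protein. Its log2 fold change was -0.15 ± 0.07 (SE, edgeR adjusted p 0.206).

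Many receptors for chemokines, lipids, nucleotides and hormones act through heterotrimeric G proteins. An occupied receptor loads the G alpha subunit with GTP, and the signal lasts until that GTP is hydrolysed. RGS proteins speed up this hydrolysis through their RGS domain and so shorten the response of a cell to its ligands. In leukocytes they are known for tuning migration toward chemoattractants. The family is divided by sequence into subfamilies. Rgs1, Rgs2, Rgs3, Rgs16 and Rgs18 belong to R4, Rgs10, Rgs12 and Rgs14 to R12, and Rgs19 to RZ.

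Total counts were 16146743 to 19764677 per library, and scaling factors (TMM) were 0.988 to 1.02. Replicates differed by more than sampling noise, with a chi-square per degree of freedom of 19.4 between DB2313 replicates 1 and 3 and of 5.03 to 9.33 in the other pairs within a group. Pairs between the groups gave 17.4 to 27.6, so DB2313 replicates 1 and 3 were as far apart as some control and treated libraries. Dendritic and macrophage markers were both present. Itgax, the integrin CD11c, was at 172 ± 4.26 CPM (counts scaled by library size, SD, n = 3) in control, the class II gene H2-Ab1 at 1310 ± 17.0 CPM and Csf1r, the receptor for M-CSF, at 689 ± 17.6 CPM. Cd209a and Siglech, found on monocyte-derived and plasmacytoid dendritic cells, had a mean under 1 CPM.

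The plain picture was one of unequal differences within the family. Rgs1 was 2.69-fold lower with DB2313, Rgs12 was 1.39-fold lower and Rgs3 was 1.22-fold lower, whereas Rgs2 was 1.27-fold higher. Rgs10, Rgs14, Rgs16, Rgs18 and Rgs19 did not pass the test. In edgeR's quasi-likelihood fit across all genes, 1 member was past an adjusted p of 0.05 on the higher side and 3 on the lower side. Of all genes tested, 4.66% passed on the higher and 5.94% on the lower side. For 5 of the 9 members, no control library reached into the CPM range of the DB2313 libraries, and this held for 27.4% of all genes tested. The members' median log2 fold change was -0.068, and that of all genes tested was 8.2e-04. As Rgs1 was the reason for the choice, nothing is read from these counts. In bulk RNA, fewer cells of a type and less RNA per cell cannot be told apart, and this holds for each value given here.

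Rgs1 is a leukocyte RGS protein of the R4 subfamily that acts on Gi and Gq subunits and dampens chemokine receptor signalling. Replicates 1 to 3 had 1986, 1595 and 1779 reads on Rgs1 in control, and 794, 790 and 602 with DB2313. On the CPM scale these were 122, 100.1 and 112 in control, and 48.2, 39.6 and 36.2 with DB2313. The 3 treated libraries were all low, and the highest of them, at 48.2 CPM, lay far below the lowest control library, at 100.1 CPM. The mean was 111 ± 11.0 CPM without and 41.3 ± 6.20 CPM with the compound (SD, n = 3 each), and the log2 fold change was -1.43 ± 0.11 (SE). Ranked from the lowest, this log2 fold change was number 66 of the 14174 genes tested, and number 18 of the 12048 with a mean log2 CPM of at least 1.

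**Figure D1:**
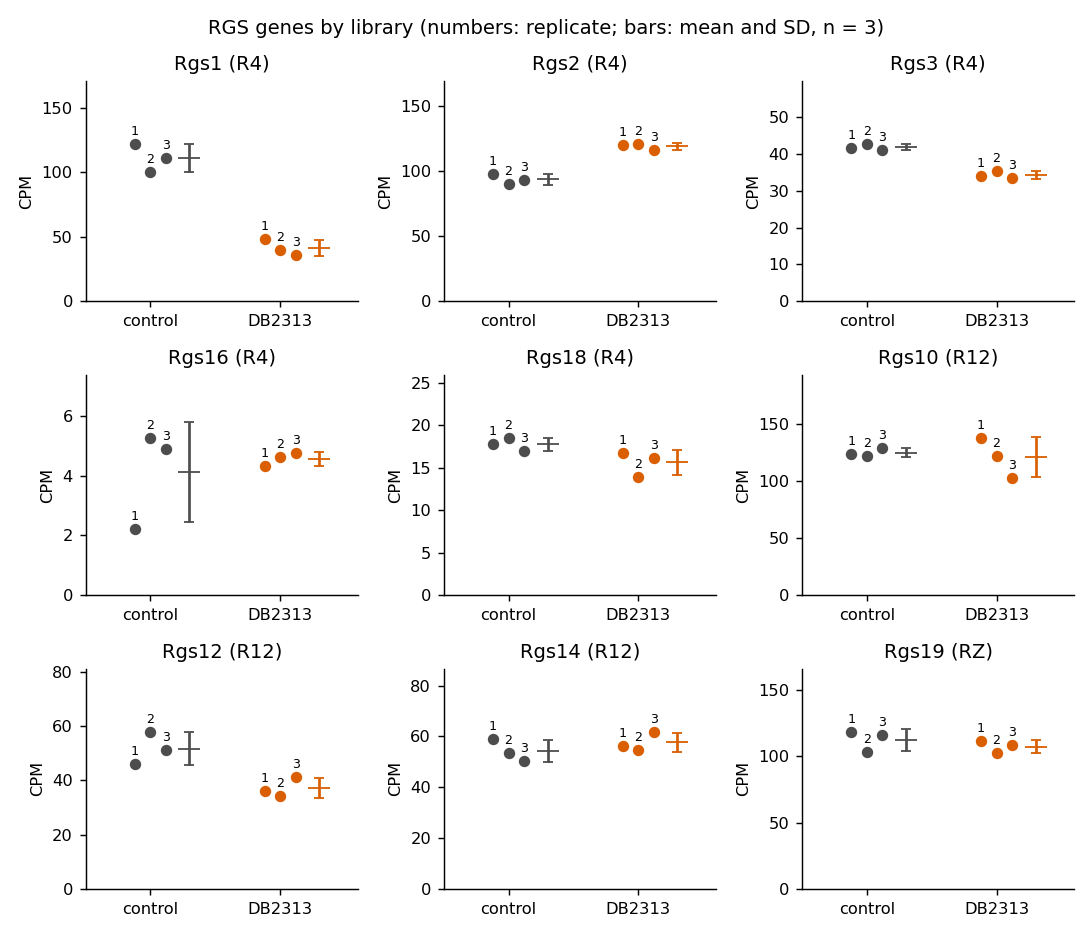
CPM of each of the 9 RGS genes (vertical axis, from 0) in the 3 control and 3 DB2313 libraries; numbers beside the points are replicate numbers, and bars give the mean and SD (n = 3). The groups are separate for Rgs1, Rgs2, Rgs3, Rgs12 and Rgs18, and Rgs1 shows the widest gap, from 111 to 41.3 CPM.

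Rgs2, also of R4, is known for its preference for Gq, the subunit that activates phospholipase C. It had 1591, 1429 and 1486 counts in the control libraries and 1978, 2404 and 1929 in the DB2313 libraries. All 3 DB2313 libraries, at 120.1, 121 and 116 CPM, were above all control libraries, at 97.8, 89.6 and 93.2 CPM. From a control mean of 93.6 ± 4.10 CPM it stood at 119 ± 2.56 CPM in the treated group (SD, n = 3 each), and its log2 fold change was 0.35 ± 0.07 (SE). Rgs2 was the only member past the threshold on the higher side.

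The counts of Rgs1 and Rgs2 can be set against each other within a library, which needs no scaling between libraries. For each Rgs2 read there were 1.12 to 1.25 Rgs1 reads without the compound but 0.312 to 0.401 with it. Rgs1 thus went from more to fewer raw reads than Rgs2. Reads also depend on gene length, deposited as 6947 bp for Rgs1 and 3627 bp for Rgs2, so this gives no order of levels per length.

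Rgs3, the R4 protein with several long and short isoforms, had 675, 681 and 656 counts in control and 559, 707 and 559 with DB2313. These corresponded to 41.5, 42.7 and 41.1 CPM against 33.9, 35.5 and 33.6 CPM. The groups were narrow and did not overlap, and the log2 fold change was -0.28 ± 0.09 (SE). Its place past the threshold held in 2 of 15 alternative analyses and was lost in 13, among them DESeq2, limma-voom and each omission of 1 library, with log2 fold changes from -0.31 to -0.20. The smallest came with an offset for gene length, and Rgs3 has the longest model of the 9, at 10801 bp.

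Rgs18 is an R4 protein of blood cells best known from platelets. It was at 17.8, 18.5 and 16.9 CPM in the control libraries, against 16.8, 13.9 and 16.1 CPM in the treated ones. Each treated library lay below each control library, but the gap between 16.8 and 16.9 CPM was small, and the log2 fold change of -0.19 ± 0.12 (SE) did not pass. Platelet and megakaryocyte genes were present as well. The 8 listed summed to 187 to 215 CPM in control libraries, against 202 to 245 CPM in treated ones. Gp1bb had no count in any library, and the other 7 had counts. Among those 7, Itga2b was at 102 ± 2.17, Pf4 at 70.4 ± 12.1 and Gp1ba at 4.37 ± 1.06 CPM in control (SD, n = 3 each). The part of such cells in the Rgs18 level was not tested.

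Rgs16, an R4 protein induced in activated lymphocytes, was the rarest member. Its counts were 36, 84 and 78 in control and 71, 92 and 79 with DB2313. Control replicate 1, at 2.21 CPM, stood below the other 5 libraries, which lay between 4.31 and 5.27 CPM. The log2 fold change was 0.15 ± 0.28 (SE) with all libraries and -0.16 without control replicate 1. A difference of this size was not detectable in these libraries.

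In the R12 subfamily, whose members act mainly on Gi, Rgs12 and Rgs14 also carry Ras-binding and GoLoco domains, and Rgs10 consists of little more than the RGS domain. Rgs12 had 751, 924 and 813 counts in control and 593, 683 and 687 with DB2313. Its CPM was 46.2, 57.96 and 50.99 in control and 36.01, 34.3 and 41.3 with DB2313, so that the groups did not overlap. The log2 fold change of Rgs12 was -0.48 ± 0.10 (SE). It ranged from -0.56 to -0.38 when 1 library was left out and was no longer past the threshold without control replicate 2 (-0.38) or without DB2313 replicate 2 (-0.42). With the offset for gene length it was -0.43 and stayed past the threshold.

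Rgs14 stood at 58.96, 53.3 and 50.2 CPM in control replicates, against 56.3, 54.8 and 61.9 CPM in treated ones. The groups overlapped and the log2 fold change was 0.09 ± 0.09 (SE). Rgs10, which is known from microglia and macrophages, had the highest mean CPM of the 9. Its control libraries were close together, at 124, 122 and 129 CPM, while the DB2313 libraries were spread from 138 in replicate 1 through 122 in replicate 2 to 103 in replicate 3. The log2 fold change of Rgs10 was -0.047 ± 0.09 (SE), and it turned to 0.059 without DB2313 replicate 3.

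Rgs19, also called GAIP, is an RZ protein that acts on Gi subunits. Control replicates gave 119, 103.1 and 116 CPM for Rgs19, and treated replicates 111, 102.3 and 109 CPM. The groups overlapped and the log2 fold change was -0.068 ± 0.08 (SE).

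**Figure D2:**
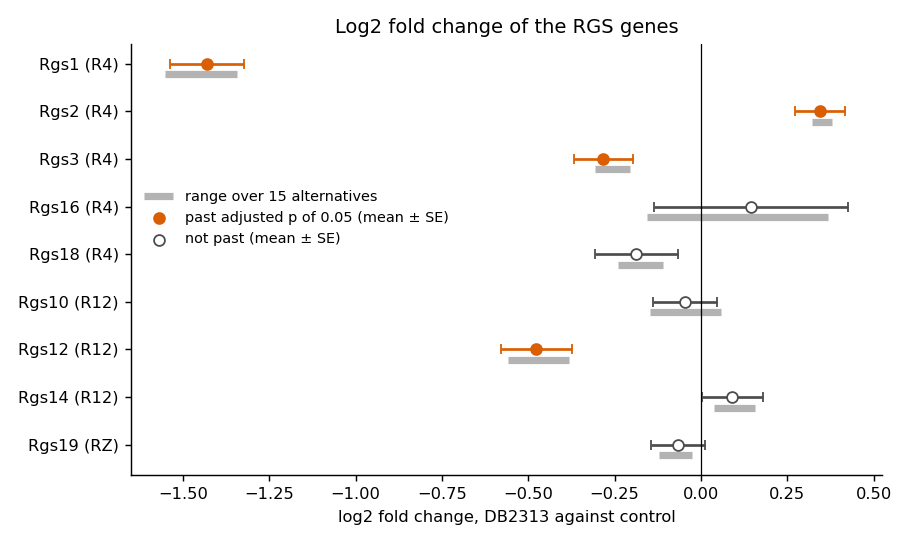
Log2 fold change of DB2313 against control for each RGS gene (horizontal axis), with its SE; orange points are past an adjusted p of 0.05 in edgeR, open points are not, and grey bars give the range over 15 alternatives. Rgs1 lies at -1.43 and Rgs2 at 0.35, while the grey bars of Rgs10 and Rgs16 cross 0.

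The summed CPM of the 9 genes ran from 592 to 629 over the control libraries but only from 521 to 565 over the treated ones. Rgs1 made up 16.9% to 19.4% of the reads of the 9 genes in control and 6.94% to 8.53% with DB2313. The mean sum differed by -73.9 CPM between DB2313 and control, and Rgs1 alone by -69.9 CPM. With Rgs1 left out, the sums overlapped, at 492 to 507 CPM for control libraries and 485 to 517 CPM for treated ones. The differences of Rgs2, Rgs12 and Rgs3 were 25.3, -14.5 and -7.46 CPM.

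Several of these genes are neighbours. On GRCm38 chromosome 1, Rgs2 (ENSMUSG00000026360, 143999338 to 144004161), Rgs1 (ENSMUSG00000026358, 144242296 to 144249242) and Rgs18 (ENSMUSG00000026357, 144752683 to 144775435) lie on the minus strand in that order, with Rgs13 between Rgs2 and Rgs1 and Rgs21 between Rgs1 and Rgs18. The start of Rgs2 was 245 kb from that of Rgs1, and the start of Rgs18 was 526 kb away on the other side. Rgs13 had at most 1 count in any library and Rgs21 had 0, which allows up to 3 counts per library. Rgs16 lies farther along the same chromosome, at 153740349 to 153745468 on the plus strand. Of these neighbours Rgs2 was higher, Rgs1 lower and Rgs18 not past the threshold. Since Rgs1 was selected for its fall, this is a description only. Of the 21 annotated genes that start within 1000 kb of the start of Rgs1, 8 were tested. Besides the 3 members these were Cdc73, Glrx2, Trove2, Uchl5 and the noncoding Gm29170, and 0 of these 5 passed in edgeR, with 0 at an unadjusted p under 0.05 and 0 in DESeq2 or limma-voom. Their log2 fold changes ran from -0.20 for Trove2 to 0.023 for Glrx2. The SE was 0.18 for Trove2 and 0.54 for Gm29170, which had 4 to 26 counts per library. Over all genes tested, 4.66% passed on the higher and 5.94% on the lower side in edgeR, so nothing is read from 0 of 5.

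**Figure D3:**
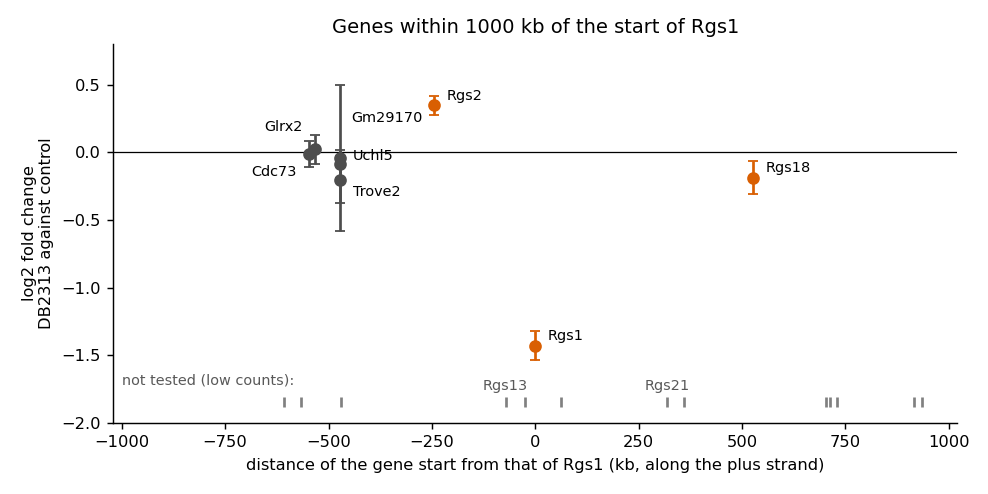
Log2 fold change (vertical axis, with SE) of the 8 tested genes that start within 1000 kb of the start of Rgs1, by distance in kb (horizontal axis); orange marks RGS members, and grey ticks mark genes with too few counts to test. Rgs1 lies at -1.43, with Rgs2 at 0.35 on one side and Rgs18 at -0.19 on the other, and the remaining genes lie between -0.20 and 0.023.

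The other members lie on chromosome 4 (Rgs3, 62559847 to 62704001, plus strand), 7 (Rgs10, 128373621 to 128418758, minus), 5 (Rgs12, 34949445 to 35039644, plus), 13 (Rgs14, 55369732 to 55384687, plus) and 2 (Rgs19, 181688419 to 181693977, minus). In the GENCODE M21 annotation, exons of antisense genes cover 5.50% of the exonic bases of Rgs12 (Gm43791) and 10.1% of those of Rgs16 (Gm28513), and both antisense genes had 0 counts in all 6 libraries. The exons of the other 7 members overlap those of no other gene in the table.

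Promoter sequences, from 250 bases before to 50 bases after a RefSeq gene start (GRCm38.p6), were present for 6 of the 9 members, 10 promoters in all, with none for Rgs1, Rgs14 or Rgs18. The motifs searched were GGAA, GAGGAAGT and TGACG, on both strands. GAGGAAGT is a sequence bound by PU.1 that holds the GGAA core shared by ETS factors, and TGACG is the half-site of the cAMP response element. The core GGAA alone was in 96% of the 32851 mouse promoters in the table and in 9 of the 10 promoters of these genes, all but that of Rgs10, and is not marked. GAGGAAGT was in 3.2% of all promoters and TGACG in 20.8%. Below are the promoter of Rgs2, the member on the higher side of the threshold, the second promoter of Rgs12, which lies inside the gene, and the first of Rgs19, since these hold a match. Capitals mark GAGGAAGT and TGACG or their reverse complements. They did not overlap each other.
Rgs2 (chr1:144004100-144004399, minus strand): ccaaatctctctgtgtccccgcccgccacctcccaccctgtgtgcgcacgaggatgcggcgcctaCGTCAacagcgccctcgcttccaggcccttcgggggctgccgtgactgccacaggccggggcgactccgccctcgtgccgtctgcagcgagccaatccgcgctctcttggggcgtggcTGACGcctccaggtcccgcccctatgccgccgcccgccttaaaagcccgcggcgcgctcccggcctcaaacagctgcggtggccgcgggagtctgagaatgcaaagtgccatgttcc
Rgs12, second start (chr5:34998828-34999127, plus strand): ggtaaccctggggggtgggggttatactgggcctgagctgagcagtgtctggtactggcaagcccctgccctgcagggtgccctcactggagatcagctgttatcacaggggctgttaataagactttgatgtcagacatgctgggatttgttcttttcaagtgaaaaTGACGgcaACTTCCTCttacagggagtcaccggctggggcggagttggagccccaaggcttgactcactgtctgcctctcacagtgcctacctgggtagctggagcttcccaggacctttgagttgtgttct
Rgs19, first start (chr2:181693928-181694227, minus strand): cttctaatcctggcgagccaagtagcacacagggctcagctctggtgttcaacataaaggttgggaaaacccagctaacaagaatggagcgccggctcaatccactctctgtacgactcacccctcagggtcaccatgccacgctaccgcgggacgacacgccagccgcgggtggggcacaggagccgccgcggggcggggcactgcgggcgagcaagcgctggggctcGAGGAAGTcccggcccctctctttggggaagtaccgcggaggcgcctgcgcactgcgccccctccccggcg

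Positions are counted in bases from the RefSeq start, taken as 0, with negative values upstream, and give the first base of the match as printed. The Rgs2 promoter held 2 copies of TGACG, at -185 on the strand opposite to the gene and at -67 on its own strand, and no GAGGAAGT. The second promoter of Rgs12 held GAGGAAGT at -74 on the opposite strand, beside a TGACG at -82. The first promoter of Rgs19 held GAGGAAGT at -21. The second promoter of Rgs19 overlaps the first and holds the same copy at -188. GAGGAAGT was thus found for Rgs12, which was lower, and for Rgs19, which did not pass the test. The promoters of Rgs3, Rgs10 and Rgs16 held neither sequence and are not printed. A match is a description of these letters and not a measured site.

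Levels can be compared between genes only per length, and TPM (counts divided by the deposited gene length and scaled to the same sum in each library) was used for this. In control the order was Rgs10 (199 ± 3.97 TPM), Rgs19 (138 ± 9.99), Rgs2 (70.3 ± 3.39), Rgs1 (43.6 ± 4.44), Rgs14 (34.8 ± 3.22), Rgs18 (23.8 ± 1.30), Rgs12 (16.6 ± 1.92), Rgs3 (10.5 ± 0.303) and Rgs16 (4.80 ± 1.92 TPM, SD, n = 3 each). Each gene's 3 values lay above those of the next. With DB2313 the order was the same except for Rgs1, which stood after Rgs18 at 16.01 ± 1.55 TPM.

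The deposited length of Rgs1 was 6947 bp, equal to the whole span of the gene, because its annotated transcripts together cover every base, and 3 of its 9 transcripts are retained-intron forms. Its longest coding transcript has 3841 bp. With the longest coding transcript of each gene as its length, a choice made after the data were seen, Rgs1 was at 58.7 ± 5.93 TPM in control and overlapped Rgs2, at 62.7 ± 3.00 TPM. In control Rgs12 (19.1 ± 2.25 TPM) overlapped Rgs3 (18.02 ± 0.557 TPM), and Rgs3 overlapped Rgs18 (17.7 ± 1.01 TPM). With DB2313 Rgs1 was at 21.4 ± 2.04 TPM, below Rgs14 and above Rgs18 without overlap. Rgs10, Rgs19 and Rgs2 kept places 1 to 3 and Rgs16 place 9 under both lengths.

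**Figure D4:**
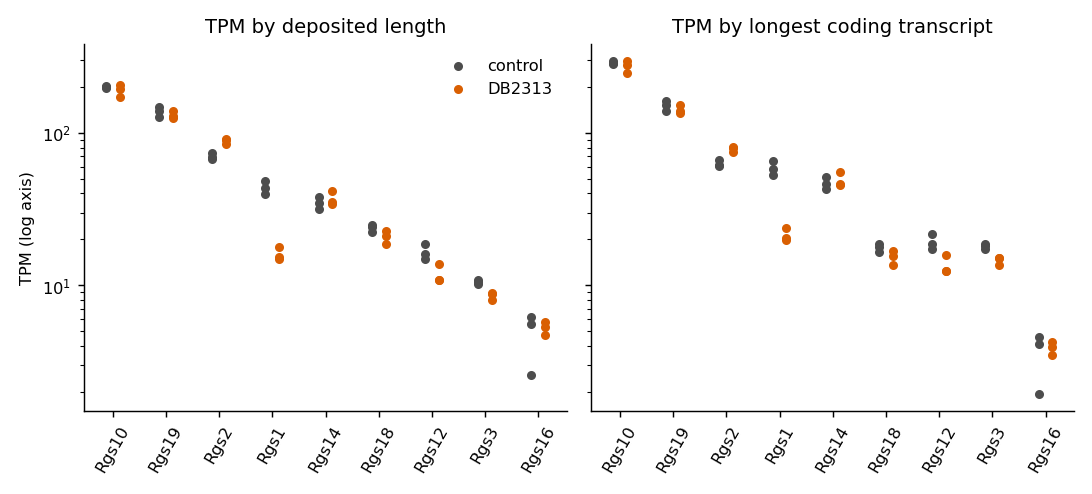
TPM of the 9 RGS genes in each library (log axis), computed with the deposited gene length (left) and with the longest coding transcript (right); dark grey points are control and orange points DB2313. Rgs10 lies highest, at 199 TPM in control on the left, and Rgs16 lowest, at 4.80, while Rgs1 drops below Rgs14 in the DB2313 libraries in both panels.

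To place the 9 genes among the pathway, 4 lists of other genes were written from general knowledge by role, with earlier results of these data known. For comparison, 4.66% of all genes tested passed on the higher and 5.94% on the lower side in edgeR. The median log2 fold change of all genes tested was 8.2e-04. The first held other proteins with an RGS or RGS-like domain, among them the receptor kinases of the Grk family and the axins. Of its 28 genes in the table, 16 were tested, 0 were past the threshold in edgeR, 2 had an unadjusted p under 0.05, 1 passed in DESeq2 and 0 in limma-voom. The gene that passed in DESeq2 was Grk2, the receptor kinase that starts desensitisation (0.21 ± 0.07 on the log2 scale, SE, adjusted p 0.0215), singled out after its values were seen. Its edgeR adjusted p was 0.0616. The 12 genes that were not tested included Rgs4, Rgs5, Rgs6, Rgs7, Rgs9, Rgs13, Rgs17, Rgs20, Rgs21 and Rgs22, all with a mean under 1 CPM in control. Outside the 9 members, Rgs8 and Rgs11 were the genes named Rgs that were tested, at 0.560 and 0.872 CPM in control. The list's median log2 fold change was -0.047.

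Of the 33 genes of G protein subunits, 23 were tested, 1 was higher and 1 lower, with a median log2 fold change of -0.0068. The 3 with the highest TPM in control were the Gi subunit Gnai2 (850 ± 1.34 TPM) and the beta subunits Gnb2 (369 ± 16.4) and Gnb1 (289 ± 9.25, SD, n = 3 each). Their log2 fold changes were -0.0068 ± 0.06, 0.041 ± 0.08 and -0.030 ± 0.06 (SE), and none passed. Gna13, a G alpha subunit, fell from 179 ± 0.456 CPM in control to 136 ± 4.54 (SD, n = 3 each), or by 0.40 ± 0.07 on the log2 scale (SE, edgeR adjusted p 0.00131). Gng11, a gamma subunit, rose by 0.69 ± 0.19 on the log2 scale (SE, edgeR adjusted p 0.0330), between means of 4.90 ± 0.929 and 7.90 ± 0.672 CPM. Gng11 rested on 62 to 162 counts per library and did not pass without control replicate 2, control replicate 3, DB2313 replicate 1 or DB2313 replicate 2, nor with the offset for gene length.

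Of the 31 genes of effectors and other regulators, 26 were tested, 2 were higher and 5 lower, with a median log2 fold change of -0.066. The 2 that rose were adenylyl cyclases, which make cAMP, but the cyclases did not move as 1 group. Adcy3 went from 5.32 ± 0.340 to 11.5 ± 1.91 CPM (SD, n = 3 each; log2 fold change 1.11 ± 0.17, SE, edgeR adjusted p 7.5e-04) and Adcy4 from 1.88 ± 0.823 to 4.21 ± 0.860 CPM (1.16 ± 0.32, edgeR adjusted p 0.0304). Adcy4 did not pass without control replicate 2, control replicate 3 or DB2313 replicate 2. Adcy6, a far more abundant cyclase, fell from 227 ± 8.75 CPM in control to 188 ± 16.6 (log2 fold change -0.27 ± 0.08, SE, edgeR adjusted p 0.0313). This call of Adcy6 was lost in 7 of the 15 alternatives, among them each omission of 1 library except DB2313 replicate 3. Single genes of phosphoinositide 3-kinase and a Rac exchange factor were also lower. The log2 fold change was -0.60 ± 0.10 for the catalytic subunit Pik3cb, -0.51 ± 0.08 for Pik3r6, an adaptor of the gamma kinase, and -0.47 ± 0.08 for Prex1, which responds to G beta-gamma (SE, edgeR adjusted p 8.2e-04, 5.9e-04 and 0.00115). Prex1 was abundant, with 721 ± 45.9 CPM in control cells and 520.4 ± 46.9 CPM in treated ones. Ccdc88a, a G alpha-binding protein also called girdin, fell by 0.47 ± 0.09 on the log2 scale (SE, edgeR adjusted p 0.00315). Pik3cg, a catalytic subunit that G beta-gamma activates, though not the only such subunit, was at 0.13 ± 0.08 on the log2 scale. Its adaptor Pik3r5 was at -0.13 ± 0.07 (SE), and neither passed.

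Of the 65 leukocyte G protein-coupled receptors, 59 were tested, 2 were higher and 12 lower, with a median log2 fold change of -0.19. The shares over all genes tested were 4.66% higher and 5.94% lower. The lowest of those past the threshold were Gpr84, a receptor for medium-chain fatty acids (-1.52 ± 0.19, SE, edgeR adjusted p 1.2e-04), the fractalkine receptor Cx3cr1 (-1.26 ± 0.18, edgeR adjusted p 4.0e-04) and the sphingosine-1-phosphate receptor S1pr3 (-0.97 ± 0.15, edgeR adjusted p 8.0e-04). Gpr84 fell from 14.1 ± 0.803 to 4.93 ± 1.51 CPM (SD, n = 3 each). Of the receptors for ADP, P2ry1 rose and P2ry13 fell, with log2 fold changes of 0.74 ± 0.11 and -0.72 ± 0.12 (SE, edgeR adjusted p 4.4e-04 and 0.00106). P2ry12, also a receptor for ADP, did not pass (-0.60 ± 0.34, SE, edgeR adjusted p 0.313). C3ar1, the receptor for complement fragment C3a, fell by 0.68 ± 0.08 on the log2 scale (SE, edgeR adjusted p 4.7e-05), its CPM being 81.8 ± 2.08 in control and 51.1 ± 1.65 after treatment. The 6 receptors named here other than P2ry12 were past the threshold in all 15 alternatives, as were Gna13, Adcy3, Pik3cb, Pik3r6, Ccdc88a and Prex1.

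**Figure D5:**
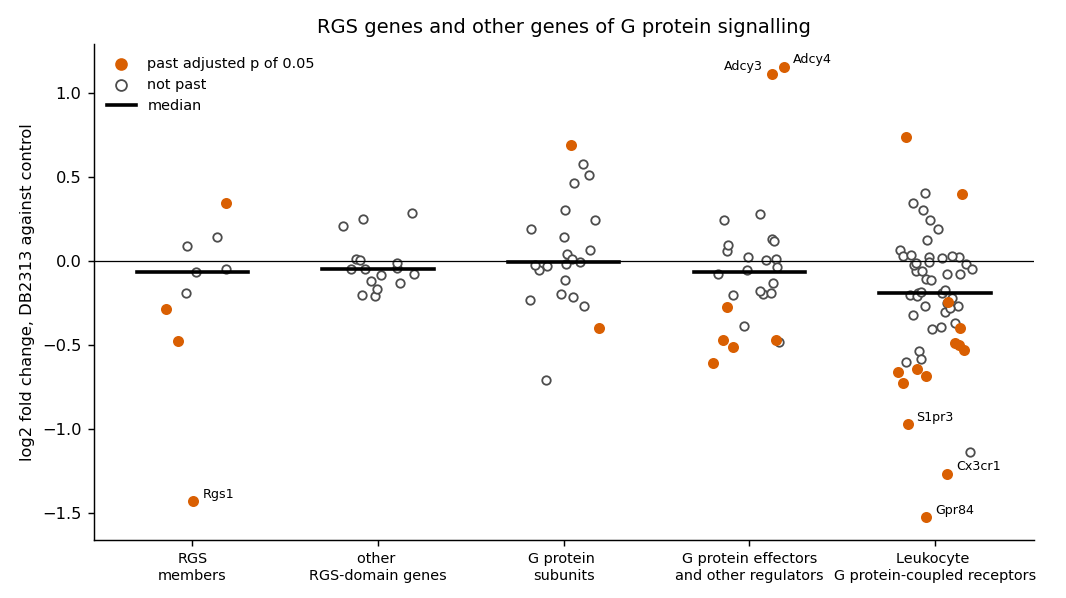
Log2 fold change (vertical axis) of each tested gene among the 9 RGS members and in 4 lists of G protein signalling genes; orange points are past an adjusted p of 0.05 in edgeR, open points are not, and black lines are medians. The receptors show a median of -0.19, with 12 genes past the threshold on the lower side, and the 16 other RGS-domain genes show 0.

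Markers of cell types that a myeloid culture can hold were summed in each library and taken singly. The 10 macrophage markers summed to 9804 to 11194 CPM in control and 8856 to 9739 CPM with DB2313, which did not overlap. Lyz2 made up 84.7% of that sum in control and did not pass (-0.15 ± 0.07 on the log2 scale, SE). The other 9 summed to 1520 to 1639 CPM in control libraries and 1215 to 1486 CPM in treated ones, again with no overlap. Of the 10, 5 fell and 1 rose in edgeR. C1qa and C1qb, subunits of complement C1q, had log2 fold changes of -0.97 ± 0.12 and -0.35 ± 0.07 (SE, edgeR adjusted p 7.8e-05 and 0.0045), and Csf1r and Mrc1 also fell, whereas Fcgr1 rose by 0.26 ± 0.08 (SE, edgeR adjusted p 0.0477). The 12 dendritic markers summed to 9897 to 10178 CPM in control and 8385 to 9903 CPM with DB2313, which overlapped. Cd74 made up 65.3% of that sum in control and did not pass (-0.13 ± 0.07 on the log2 scale, SE). The rest of the list summed to 3431 to 3537 CPM in control libraries and 2993 to 3295 CPM in treated ones, with no overlap. Of the 10 dendritic markers tested, Itgax fell by 0.58 ± 0.08 on the log2 scale (SE, edgeR adjusted p 3.2e-04) and Clec9a, at 0.769 CPM in control, rose by 2.12 ± 0.37 (SE, edgeR adjusted p 0.0017).

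Markers of other cells were present and some were higher with DB2313. The 10 neutrophil markers summed to 4421 to 4973 and 4487 to 5895 CPM, the 10 of mast cells and basophils to 1360 to 1435 and 1373 to 1635 CPM, and the 10 of T cells to 216 to 251 and 218 to 323 CPM in control and DB2313. The sums of each of these 3 lists overlapped. In edgeR, 3 neutrophil markers rose, namely Elane by 0.69 ± 0.11, Ly6g by 0.56 ± 0.11 and Retnlg by 0.51 ± 0.13 on the log2 scale (SE, adjusted p 5.9e-04, 0.00473 and 0.0242), and 5 markers of this list passed in DESeq2. Of mast cell and basophil markers, Fcer1a rose by 0.34 ± 0.09 and Hdc by 0.28 ± 0.08 (SE, edgeR adjusted p 0.0244 and 0.0293). Of the T cell, B cell and plasma cell, and megakaryocyte and platelet markers, 10, 2 and 7 were tested, and 0 passed in edgeR, DESeq2 or limma-voom, while 2, 2 and 0 had an unadjusted p under 0.05 in edgeR. The 8 B cell and plasma cell markers summed to 34.3 to 39.5 CPM in control and 40.7 to 46.8 CPM with DB2313, which did not overlap. Rgs1 and Rgs2 are also expressed in lymphocytes and mast cells. The part of these markers in the levels of the RGS genes was not tested.

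The genes whose profile was most like that of Rgs1 were sought among 11968 other genes with a mean log2 CPM of at least 1. Likeness was the root mean square difference between the log2 CPM of the 6 libraries, each gene being centred on its own mean. The 5 nearest were Lgmn (0.114), Dcstamp (0.163), Aldh1a2 (0.165), Insm1 (0.191) and Hnmt (0.193). All 5 were lower in each DB2313 library than in each control library, as was Rgs1, which the measure requires of genes so close to it. Lgmn, the protease legumain, went from 310 ± 9.33 to 108 ± 9.13 CPM (SD, n = 3 each), and Aldh1a2, an enzyme of retinoic acid synthesis, from 185 ± 6.79 to 80.9 ± 10.5 CPM.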

How the data were processed

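The deposited values were raw counts of reads for each gene, not normalised, in 1 column per library, beside gene lengths in bp. The study's methods named LifeScope for alignment and counting, whereas the submitters' processing notes listed CASAVA 1.8, HISAT2 2.0.5 and featureCounts 1.5.0-p3, and these sources disagree. Build, strandedness and the use of multiply mapped reads were not given in the sources used here. GENCODE M21 shared 54495 identifiers with the table, 98.33% of them with equal start and end and 98.01% with an exon union equal to the deposited length, so coordinates are given as GRCm38. Columns were matched to samples by name and number, with BMDC read as the control dendritic cells and SPI1 as DB2313.

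Counts were tested by quasi-likelihood in edgeR 4.0.16 under R 4.3.3 (TMM, filterByExpr, group as the only term) with Benjamini-Hochberg adjustment over all 14174 genes tested and a threshold of 0.05. Log2 fold changes are DB2313 against control, and SE values come from the same fit. Alternatives were DESeq2 1.42.0, limma-voom (limma 3.58.1), DESeq2 size factors, library totals, a minimum mean of 10 counts, no filter, an offset for gene length (lowess, span 0.3), the replicate number as a block, both together, and the omission of each library. CPM uses TMM-scaled library sizes, and profiles for likeness used a prior count of 2. Promoters came from RefSeq (GRCm38.p6). No molecular identifiers were named, so reads are not independent molecules, and the limit of 3 for a count of 0 covers counting error only.

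The members, the 4 pathway lists and the marker lists were chosen with earlier results of these data known. The rule named all members, up to 6 genes past the threshold with the largest absolute log2 fold change in each list, the 3 subunits with the highest TPM and the 5 genes nearest to Rgs1. The labels gave no batch. Other genes were named after their values were seen.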

Additional observations from a re-analysis of the deposited data

How the results depend on the processing

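Over the 15 alternatives, Rgs1 ranged from -1.55 to -1.34 and Rgs2 from 0.32 to 0.38 on the log2 scale, both past the threshold in each. The set was selected on the fall of Rgs1 in these same libraries, so this is a description and supports nothing. The number of members on the lower side was 1 to 2 over the 6 fits that left out 1 library. It was 1 without control replicate 2 and without DB2313 replicate 2. In those fits 796 of 14537 and 739 of 14580 genes tested passed in either direction, against 1503 of 14174 with all libraries. Nothing is read from the member counts. Over these 6 fits Rgs16 ranged from -0.16, without control replicate 1, to 0.37 and Rgs10 from -0.15 to 0.059, without DB2313 replicate 3. The cause was not tested.

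Among the other RGS-domain genes 1 was higher with library totals, no filter, DESeq2 and the length offset (Grk2 in each), and 0 to 1 were higher and 0 to 1 lower over the omissions. Of the G protein subunits 2 were lower with DESeq2, limma-voom, the length offset and the length offset with the replicate block (Gna13 and Gna12), and 0 were higher with the latter. Over the omissions 0 to 1 subunits were higher and 1 to 3 lower, and 1 to 2 effectors were higher and 4 to 6 lower. Of the receptors, 1 to 3 were higher and 9 to 15 lower. Of all genes 739 to 2408 passed over the omissions, against 1503, the fewest without DB2313 replicate 2 and the most without DB2313 replicate 3; 846, 796 and 854 passed without control replicates 1, 2 and 3.

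The labels did not say whether libraries with the same replicate number were paired. Correlations of same-numbered deviations were 0.0035, -0.024 and -0.12, which cannot decide it, since pairs may share little variation. With the replicate block Rgs1 was at -1.43 on the log2 scale, and the members on the lower side were 2 and on the higher side 1. Of all 14174 genes tested, 1131 passed with the block in either direction. Rgs16, at 36 to 92 counts per library, is the member most limited by depth.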
